A study of Mus musculus with 17 samples.

Results

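The Gadd45 genes of the mouse, Gadd45a, Gadd45b and Gadd45g, were followed in macrophages stimulated with IL-6. They were read by 4 probe sets, those to which the platform annotation gives one of these 3 symbols and no other, out of 12488 probe sets for 8252 named genes on the array. Gadd45g and Gadd45a had 1 probe set each, 101979_at and 102292_at. Gadd45b had a pair, 102779_at and 161666_f_at. The members were chosen with the rise of Gadd45g after 100 min of IL-6 in KO cells already known, so values of that comparison are given as a description, with no test. Other comparisons that use the KO arrays at 100 min or the unstimulated KO arrays share data with it. Their p-values are not free of that choice.

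Expression was measured on 17 arrays of total RNA from macrophages, all derived from the marrow of irradiated mice that had received fetal liver cells. Donor cells came from SOCS3-/- embryos (called KO here) or SOCS3+/+ embryos (called WT). SOCS3 is the feedback inhibitor of gp130, the receptor subunit through which IL-6 activates STAT3. The groups were KO cells unstimulated (0 min) and after 100 and 400 min of IL-6 at 10 ng/ml, with 3 arrays each, and WT cells at the same times, with 2 arrays at 0 min and 3 at each later time. It is not stated in the labels what part of Socs3 was deleted, what drove the deletion, how many mice were used or whether the numbered replicates are separate cultures. All p-values therefore reflect the variation among these arrays, and that may be technical variation alone.

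Gadd45 proteins are small acidic proteins without enzyme activity that act by binding others. They bind and activate the kinase Map3k4, which feeds the p38 and JNK kinases, and they bind Cdk1 with cyclin B1, PCNA and the inhibitor p21, through which they slow the cell cycle. They also take part in DNA repair and demethylation. Gadd45a is the member best known as a target of p53 after DNA damage, Gadd45b is induced by NF-kappaB and TGF-beta and during myeloid differentiation, and Gadd45g was found as a gene induced by cytokines.

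The sequences just upstream of the 3 genes are shown so that the motifs near their starts can be compared. Each is the 250 bases before the RefSeq start on the gene's own strand, in mouse assembly GRCm38.p6. The window of Gadd45g is chr13:51846425-51846674 (plus strand), that of Gadd45a chr6:67037408-67037657 (minus strand) and that of Gadd45b chr10:80929841-80930090 (plus strand). Capitals mark the motifs found, which were chosen after the sequences had been seen: the E-box CACGTG, the CCAAT box and the octamer ATTTGCAT (ATGCAAAT on the other strand).
Gadd45g: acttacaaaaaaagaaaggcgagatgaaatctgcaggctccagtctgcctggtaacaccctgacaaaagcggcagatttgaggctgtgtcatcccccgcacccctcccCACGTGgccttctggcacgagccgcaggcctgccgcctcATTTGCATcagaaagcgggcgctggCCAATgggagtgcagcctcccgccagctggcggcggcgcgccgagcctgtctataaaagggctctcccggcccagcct
Gadd45a: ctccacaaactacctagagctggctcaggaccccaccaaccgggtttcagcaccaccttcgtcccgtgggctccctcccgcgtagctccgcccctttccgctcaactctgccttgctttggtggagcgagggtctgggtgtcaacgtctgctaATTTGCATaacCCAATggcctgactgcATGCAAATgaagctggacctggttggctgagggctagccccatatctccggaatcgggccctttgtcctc
Gadd45b: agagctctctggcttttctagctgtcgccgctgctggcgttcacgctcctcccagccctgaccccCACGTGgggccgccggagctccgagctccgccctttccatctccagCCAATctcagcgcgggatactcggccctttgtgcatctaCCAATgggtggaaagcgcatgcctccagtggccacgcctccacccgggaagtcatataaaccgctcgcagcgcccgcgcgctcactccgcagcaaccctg
The STAT site TTCNNNGAA, searched on both strands, matched in 0 of the 3 windows and in 7.02% of all 32851 promoter windows of this length. The AP-1 site TGANTCA matched in 0 of the 3 and in 6.75% of all. The E-box CACGTG, in 6.02% of all windows, stood 142 bases before the start of Gadd45g and 185 before that of Gadd45b. The octamer ATTTGCAT, in 1.6% of all windows, stood 103 bases before the start of Gadd45g and, once on each strand, 97 and 70 before that of Gadd45a. CCAAT, the commonest at 33.8%, occurred in all 3. Gadd45a and Gadd45g thus shared the octamer, and Gadd45b and Gadd45g the E-box, and none of the motifs overlapped another. A match is a description of letters, and sites outside these windows were not searched.

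Several features of the whole set touch the results. On 8 of the 9 KO arrays Socs3 read below each stimulated WT array on its first probe set, and the exception goes against its label. The array labelled KO 400 min replicate 3 read 903, and for the Gadd45 genes the values of KO cells at 400 min are also given without it. Of the 5 arrays of replicate 3, 4 stood apart on the first principal component (26.6 to 58.1, against -30.3 to 2.27 for the 12 arrays of replicates 1 and 2). The genotypes also differed in sex-linked genes: Eif2s3y lay between 7.67 and 112 on KO arrays and between 245 and 790 on WT arrays, so genotype cannot be told apart from this difference. Of 15 macrophage markers read, 12 lay above the 40th percentile of the array on all 17 arrays, with a median gene mean of 6273. Of the T and NK cell markers 0 of 13 did so, of B cell markers 1 of 9, of neutrophil markers 3 of 11, of erythroid and megakaryocyte markers 0 of 7 and of fibroblast markers 2 of 11. In RNA from whole cultures, fewer cells of a type and less RNA per cell cannot be told apart.

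Of the 4 probe sets, that of Gadd45g had the largest log2 differences between stimulated and unstimulated cells, in KO and in WT cells. In KO cells its normalized intensity was 248, 172 and 448 without stimulation (replicates 1, 2 and 3). It was 2868, 2894 and 1919 after 100 min of IL-6, and 2608, 2851 and 1163 after 400 min. Each stimulated KO array was above each unstimulated one. Replicate 3 was the highest of the unstimulated arrays and the lowest at both later times.

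The group means of Gadd45g in KO cells were 290 ± 143 unstimulated, 2560 ± 556 at 100 min and 2207 ± 913 at 400 min (SD, n = 3 each). At 100 min against unstimulated this is a log2 difference of 3.23 (SE 0.39), or 9.40-fold, the 14th largest among the 9871 probe sets tested. Over all probe sets tested 0.537% were called higher and 0.0405% lower in this comparison, which is given for reference. No call is given for the members, since they were chosen on this contrast.

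At 400 min Gadd45g rose in KO cells by 2.94 on the log2 scale (SE 0.39, 7.67-fold, limma adjusted p = 0.00198). All stimulated arrays were above the unstimulated ones, as for 8.56% of all probe sets. It was the 1 member called in this comparison, where 1.2% of all probe sets were called higher and 0.628% lower. The comparison shares its 3 unstimulated arrays with the one at 100 min, so it is not separate evidence. The call was kept without any one of the 17 arrays (adjusted p up to 0.0171) and was lost when the fit held only the 6 arrays compared (adjusted p = 0.0838). Without the array whose Socs3 goes against its label the difference was 3.35 (adjusted p = 0.000841). Within replicate numbers, each the difference of a single pair of arrays, it was 3.39, 4.05 and 1.38. From 100 to 400 min Gadd45g in KO cells differed by -0.29 (adjusted p = 0.894, and 0.12 on the log2 scale without that array), which did not pass the test. In this comparison limma called 0 probe sets, and 891 had an unadjusted p under 0.05.

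**Figure D1:**
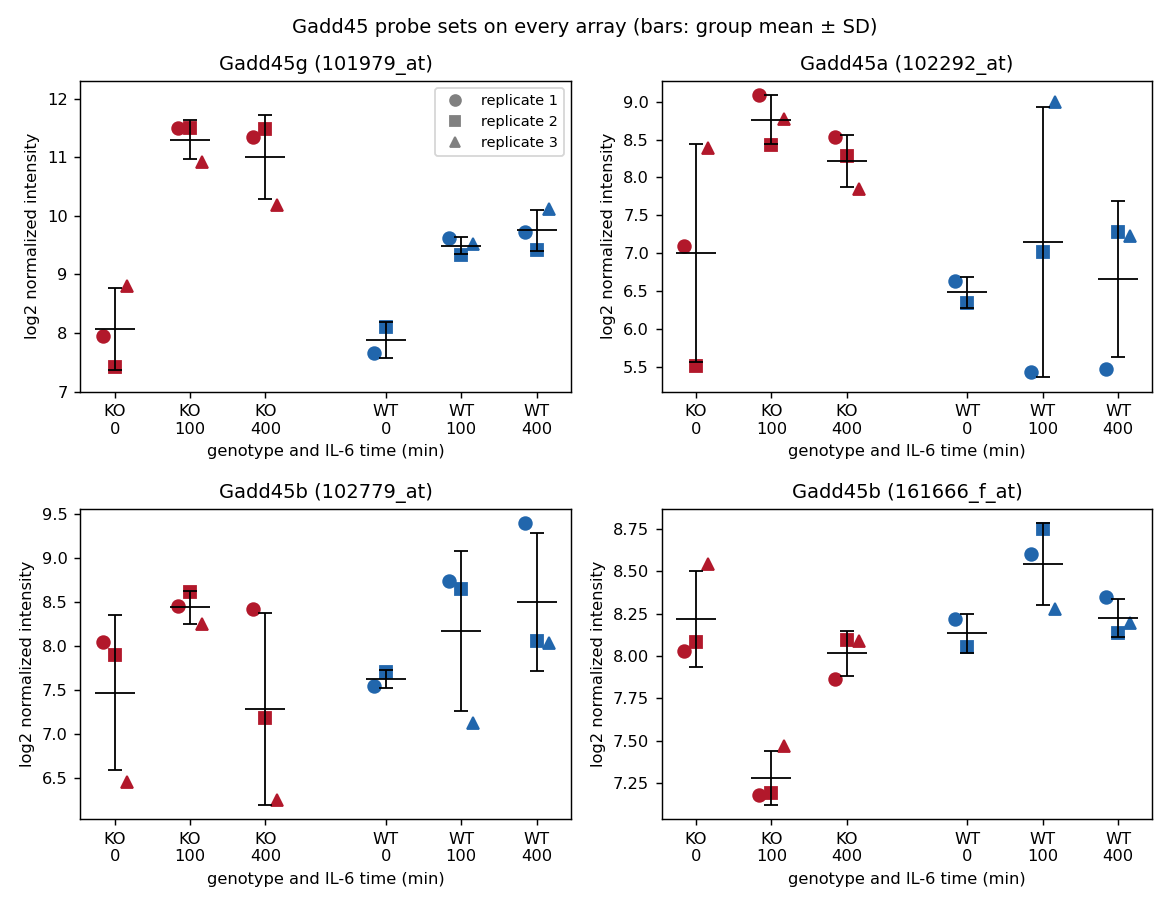
Normalized intensity (log2 axis) of the 4 Gadd45 probe sets on each of the 17 arrays, by genotype and time of IL-6 in min. Red points are KO and blue points WT arrays, the shape gives the replicate number, and bars are the group mean ± SD. Gadd45g on all 6 stimulated KO arrays lies above all 8 WT arrays, and Gadd45b on 161666_f_at is lowest on the 3 KO arrays at 100 min.

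In WT cells Gadd45g read 203 and 274 unstimulated, 792, 645 and 730 at 100 min, and 842, 684 and 1114 at 400 min. All 6 stimulated arrays were above both unstimulated ones, and the 100 and 400 min arrays overlapped. The log2 difference was 1.61 at 100 min (SE 0.44, 3.05-fold, limma adjusted p = 0.516) and 1.87 at 400 min (SE 0.44, 3.66-fold, adjusted p = 0.266), and neither passed the test. Values above both unstimulated WT arrays on every stimulated array, as for Gadd45g, were seen in 10.7% of all probe sets at 100 min and in 10.8% at 400 min, and a single probe set (0.0101%) was called at each time. With 2 unstimulated WT arrays the comparison is less precise than in KO cells, and both comparisons share those 2 arrays.

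Unstimulated KO and WT cells overlapped in Gadd45g, with 290 ± 143 in KO and 239 ± 50.2 in WT (n = 3 and 2), a difference of 0.18 (adjusted p = 0.976). At 100 min it was 2560 ± 556 in KO and 722 ± 73.6 in WT (n = 3 each), and all KO arrays were above all WT arrays. This is a log2 difference of 1.81 (SE 0.39, 95% interval 0.97 to 2.65, 3.50-fold), which did not pass the test over all probe sets (limma adjusted p = 0.213). It shares the KO arrays at 100 min with the contrast on which the members were chosen, so it is not separate evidence. Non-overlap with KO higher was found in 4.19% of all probe sets at 100 min, and 0.0304% were called higher in KO. At 400 min it was 2207 ± 913 in KO and 880 ± 217 in WT, a difference of 1.25 (SE 0.39, 2.38-fold, adjusted p = 0.289), where 7.21% of probe sets did not overlap with KO higher.

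That separation at 400 min was narrow, since the lowest KO array, replicate 3, read 1163 and the highest WT array, also replicate 3, read 1114. Within replicate numbers KO exceeded WT by 1.63, 2.06 and 0.06 on the log2 scale at 400 min and by 1.86, 2.17 and 1.39 at 100 min. Without KO 400 min replicate 3 the difference at 400 min was 1.66 (limma adjusted p = 0.078). With only replicates 1 and 2 both passed the test, at 2.01 (adjusted p = 0.031) at 100 min and 1.85 (adjusted p = 0.0191) at 400 min. The calls between genotypes thus depend on whether the arrays of replicate 3 are used. With single arrays left out neither difference was called. The limma adjusted p then ranged from 0.0773 to 0.833 at 100 min and from 0.078 to 0.619 at 400 min.

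The responses themselves were compared by the interaction term. The KO response of Gadd45g exceeded the WT response by 1.62 at 100 min (SE 0.59, 95% interval 0.36 to 2.88) and by 1.07 at 400 min (SE 0.59, interval -0.19 to 2.33). Neither was called by limma (adjusted p = 1 and 0.908), in which 0 probe sets were called at either time and 361 and 531 had an unadjusted p under 0.05. The difference at 400 min was 1.48 without KO 400 min replicate 3 (adjusted p = 0.657). With only replicates 1 and 2 the differences were 2.20 and 2.04 (adjusted p = 0.287 and 0.129). The intervals are for a single probe set and are not adjusted for the number tested. The comparison at 100 min also holds the arrays of the contrast on which the members were chosen.

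By group mean the order of Gadd45g levels was KO 100 min, KO 400 min, WT 400 min, WT 100 min, KO unstimulated and WT unstimulated. The arrays of the stimulated KO groups overlapped, as did those of the WT groups at 400 and 100 min and those of the unstimulated groups. The arrays of KO 400 min and WT 400 min were separated only by the narrow gap given above, and the lowest WT array at 100 min (645) was above the highest unstimulated KO array (448).

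**Figure D2:**
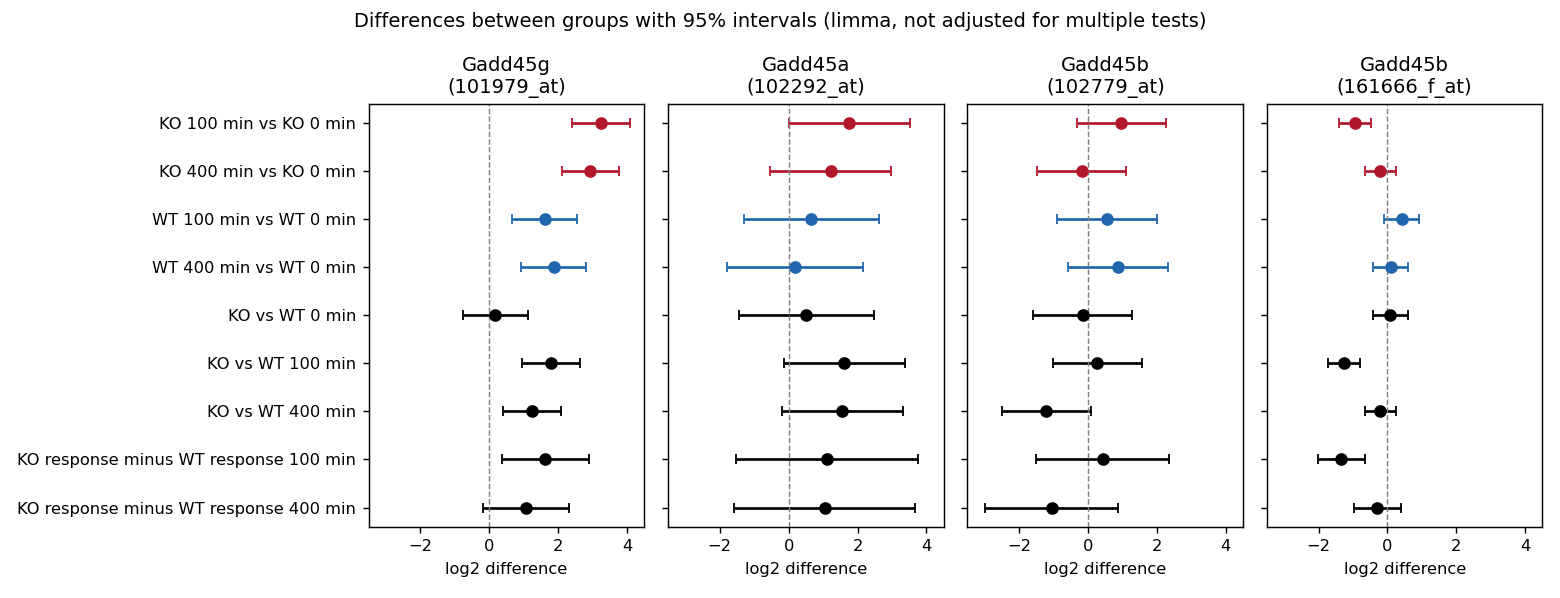
Log2 differences between groups for each of the 4 Gadd45 probe sets, with 95% intervals from limma that are not adjusted for the number of probe sets. Red marks KO and blue WT stimulated against unstimulated cells, and black marks KO against WT and the difference of the responses. The Gadd45g differences of stimulated against unstimulated cells lie between 1.61 and 3.23, and the intervals of Gadd45a mostly include 0.

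Socs3 and Gadd45g can be set side by side on each array. On the 5 stimulated KO arrays other than KO 400 min replicate 3, Socs3 read 66.8, 86.2 and 179.5 at 100 min and 48.6 and 78.5 at 400 min, and Gadd45g read 1919 or more. On KO 400 min replicate 3 Socs3 read 903, against 2400, 2036 and 2117 on the WT arrays at 400 min, and Gadd45g read 1163. Unstimulated KO arrays had Socs3 at 20.6, 23.6 and 16.5, and the unstimulated WT arrays at 115 and 54.9. On the WT arrays at 100 min Socs3 read 2552, 1809 and 432, and Gadd45g read 792, 645 and 730. WT 100 min replicate 3 was thus below KO 400 min replicate 3 in Socs3, while its Gadd45g lay between those of the other WT arrays at 100 min. The array that goes against its label had the highest Socs3 and the lowest Gadd45g of the stimulated KO arrays. In Eif2s3y and Xist it lay on the side of the other KO arrays: on all 9 KO arrays Eif2s3y was at most 112 and Xist at least 228, against at least 245 and at most 188 on the WT arrays.

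**Figure D3:**
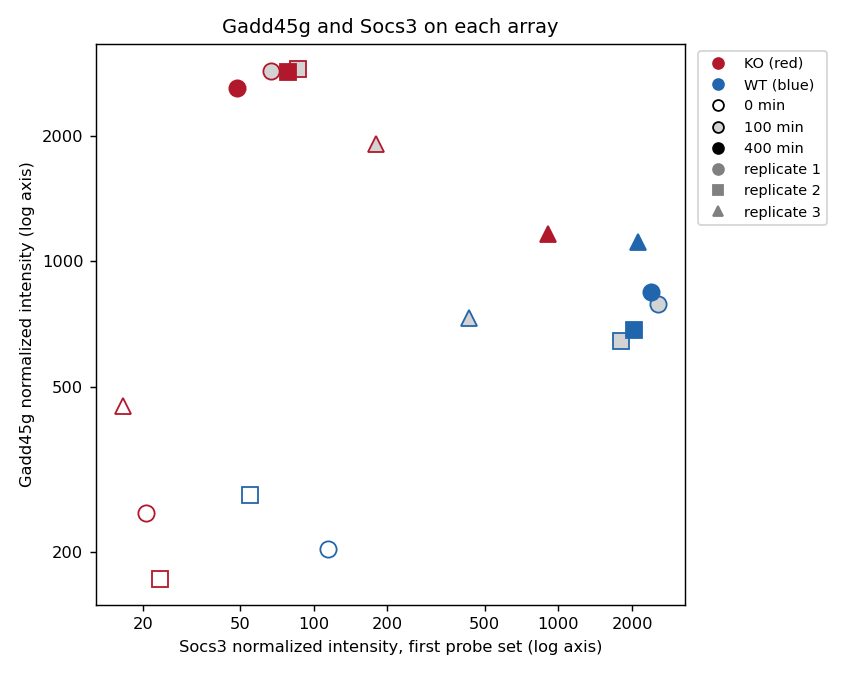
Normalized intensity of Gadd45g against that of Socs3 (first probe set) on each of the 17 arrays, both on log axes. Red is KO and blue WT, open symbols are 0 min, grey 100 min and filled 400 min, and the shape gives the replicate number. KO 400 min replicate 3, at 903 for Socs3 and 1163 for Gadd45g, lies between the other stimulated KO arrays and the WT arrays at 400 min.

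Gadd45a, the member that p53 controls after DNA damage, was less even between replicates. In KO cells it read 137, 45.7 and 335 unstimulated, 542, 346 and 437 at 100 min, and 369, 311 and 229.8 at 400 min. In WT cells it read 98.9 and 80.7 unstimulated, 43.0, 129 and 509.6 at 100 min, and 44.2, 155 and 150.2 at 400 min. Replicate 3 was the highest array of the unstimulated KO and the WT 100 min groups, and both of these arrays are among the 4 that stood apart on the first principal component. Its part in these values was not tested.

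The means of Gadd45a at 100 min were 442 ± 98.3 in stimulated and 173 ± 148 in unstimulated KO cells, a difference of 1.76 (SE 0.82, 3.40-fold) with no overlap of the arrays. Non-overlap with the stimulated cells higher was found in 5.69% of all probe sets here. At 400 min the difference was 1.22 (limma adjusted p = 0.637), and in WT cells it was 0.66 at 100 min (adjusted p = 0.949) and 0.18 at 400 min (adjusted p = 0.995). None of these passed the test. KO exceeded WT by 1.62 at 100 min (SE 0.82, adjusted p = 0.999), with overlapping arrays, since WT replicate 3 at 509.6 was above KO replicates 2 and 3. Within replicate numbers this difference was 3.66, 1.43 and -0.22, so its size and direction depended on the number.

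At 400 min Gadd45a was 303 ± 70.0 in KO and 117 ± 62.7 in WT cells (n = 3 each). The lowest KO array, 229.8, was above the highest WT array, 155, a separation with KO higher that 7.21% of all probe sets showed. The difference of 1.56 (95% interval -0.20 to 3.32, limma adjusted p = 0.625) did not pass the test, and within replicate numbers it was 3.06, 1.00 and 0.61. The KO and WT responses differed by 1.10 at 100 min and 1.04 at 400 min (adjusted p = 1 and 0.963). Without KO 400 min replicate 3 Gadd45a differed at 400 min by 1.40 in stimulated against unstimulated KO cells, by 1.75 in KO against WT and by 1.23 in the responses (adjusted p = 0.644, 0.626 and 0.912).

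Gadd45b, the member tied to NF-kappaB and to myeloid differentiation, had a pair of readings that moved differently. On 102779_at it read 265, 239 and 88.1 in unstimulated KO cells, 350.3, 392 and 304 at 100 min, and 344, 145 and 76.3 at 400 min. In WT cells it read 188 and 208 unstimulated, 426, 402 and 139.5 at 100 min, and 674, 267 and 262 at 400 min. Replicate 3 was the lowest array in each of the 5 groups that have one.

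None of the comparisons of 102779_at that were tested passed. Stimulated KO cells at 100 min averaged 349 ± 43.8 against 197 ± 95.5 unstimulated, a difference of 0.97 (SE 0.60) without overlap, as for the 5.69% of all probe sets given above. At 400 min the difference was -0.18 (limma adjusted p = 0.949), and between 400 and 100 min -1.15 (adjusted p = 0.612). In WT cells it was 0.54 at 100 min (adjusted p = 0.946) and 0.87 at 400 min (adjusted p = 0.93), without overlap at 400 min, as for 10.8% of all probe sets. At 400 min the level was 188 ± 139 in KO and 401 ± 236 in WT cells, a difference of -1.21 (adjusted p = 0.6), negative within all 3 replicate numbers but with overlapping arrays. Without KO 400 min replicate 3, the lowest of all 17 arrays, these values of KO cells at 400 min were 0.33 against unstimulated, -0.64 against 100 min and -0.70 against WT (adjusted p = 0.912, 0.837 and 0.828), so the sign of the first turned.

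On 161666_f_at, Gadd45b read 262, 271 and 374 in unstimulated KO cells, 145, 146 and 177 at 100 min, and 233, 273 and 273 at 400 min. In WT cells it read 297 and 266 unstimulated, 389, 430.5 and 309.8 at 100 min, and 325, 281 and 293 at 400 min. The 3 KO arrays at 100 min were the lowest of all 17. The letter f in such a name marks a probe set whose probes are shared by a family of similar sequences, so signal from a related transcript may be included.

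In KO cells at 100 min this reading of Gadd45b was 156 ± 17.9, against 302 ± 62.2 unstimulated, a difference of -0.94 (SE 0.21). Non-overlap with the stimulated cells lower was found in 5.68% of all probe sets. Against WT cells at 100 min, 156 ± 17.9 in KO stood beside 376 ± 61.3 in WT (n = 3 each), a difference of -1.26 (SE 0.21, 95% interval -1.72 to -0.81). It was the 7th smallest p of that comparison and narrowly missed the threshold (limma adjusted p = 0.0544), where 0.0101% of probe sets were called lower in KO and 4.99% lay lower without overlap. Within replicate numbers it was -1.42, -1.56 and -0.81. Leaving out WT 100 min, KO 0 min or KO 400 min replicate 3 brought it past the threshold (adjusted p = 0.0498, 0.0464 and 0.0484). Leaving out other single arrays raised the limma adjusted p to as much as 0.227, and the alternatives in processing to as much as 0.434. The comparison shares the KO arrays at 100 min with the contrast on which the members were chosen, so it is not separate evidence. The KO and WT responses at 100 min differed by -1.35 (SE 0.32, adjusted p = 0.787), which did not pass. In WT cells the difference was 0.41 at 100 min (adjusted p = 0.886) and 0.09 at 400 min (adjusted p = 0.987), and in KO cells -0.20 at 400 min (adjusted p = 0.788). From 100 to 400 min in KO cells it was 0.74 (adjusted p = 0.305), with all arrays at 400 min higher, as for 7.46% of all probe sets. At 400 min the KO arrays reached at most 273 and the WT arrays began at 281, a difference of -0.21 (adjusted p = 0.849), and 7.57% of all probe sets lay lower in KO without overlap. Without KO 400 min replicate 3 these 3 differences at 400 min in KO cells, against unstimulated, 100 min and WT, were -0.24, 0.70 and -0.25 (adjusted p = 0.797, 0.451 and 0.841).

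The pair of Gadd45b probe sets therefore gave opposite signs in KO cells at 100 min, 0.97 on 102779_at and -0.94 on 161666_f_at. Against WT cells they gave 0.27 (adjusted p = 0.999) and -1.26. Across the 17 arrays they had a Pearson correlation of -0.17, and across the 12 arrays of replicates 1 and 2 it was 0.06. No direction for Gadd45b as a gene can be read from them. Gadd45g correlated with Gadd45a at 0.63 (0.73 over the 12 arrays) and with Gadd45b at 0.19 on 102779_at and -0.53 on 161666_f_at. Gadd45a correlated with Gadd45b at -0.35 and -0.53 on these. The points share the groups, the arrays and the normalization, so these are descriptions.

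The partners and pathways of the Gadd45 proteins were read from lists that share some genes. The median log2 difference in KO cells at 400 min was -0.06 over 14 tested genes for direct partners and -0.04 over all probe sets. Of these 14, 0 were called higher and 1 lower, against 1.2% and 0.628% of all probe sets. That gene was Mapk14, the p38 alpha kinase activated below Map3k4. It averaged 1240 ± 327 at 400 min against 2536 ± 250.3 unstimulated in KO cells (n = 3 each), and fell by 1.06 on the log2 scale (SE 0.25, limma adjusted p = 0.0444). The call held when the array left out was replicate 3 of WT 100 min, WT 400 min or KO 400 min, or replicate 2 of WT 400 min, and was lost without any of the other 13 arrays (adjusted p up to 0.172). In WT cells Mapk14 differed by -0.63 at 400 min (adjusted p = 0.771).

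The other partners read were not called. Map3k4, the kinase that Gadd45 proteins open, differed by -0.07 and -0.17 in KO cells at 400 min on its pair of probe sets. Cdk1, the mitotic kinase, differed by -0.46 and Pcna, the replication clamp, by -0.31. Cdkn1a, which encodes p21, differed by 0.20 and 0.08 on its pair. Of the p38 and JNK cascade 16 genes were tested, with Mapk14 again the 1 called lower at 400 min and a median of 0.11 (0.04 without KO 400 min replicate 3). With only replicates 1 and 2 the median of this list was -0.06. In that setting Jun was called higher (1.42, limma adjusted p = 0.0319) and Mapk14 lower (-1.35, adjusted p = 0.0277). Ccnb1 and Trp53 were not analysed here.

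Among 17 tested growth arrest genes and p53 targets, limma called 0 in KO cells at 400 min and 2 had an unadjusted p under 0.05, with a median of -0.0009 (-0.20 without KO 400 min replicate 3). Ppp1r15a, also known as Gadd34 and named with this family although unrelated in sequence, differed by 0.88 (limma adjusted p = 0.742). Ddit3, also known as Gadd153 and a factor of the unfolded protein response, differed by 1.17 (adjusted p = 0.667). Without KO 400 min replicate 3, Sesn1, a stress-induced regulator of growth signalling, was lower by -2.13 (adjusted p = 0.031). The list of DNA demethylation and excision repair had 0 of 16 called and 1 at an unadjusted p under 0.05, with a median of -0.32 (-0.19 without that array).

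Of 26 cell cycle genes tested, limma called 0 in KO cells at 400 min and 5 had an unadjusted p under 0.05. Of the 26, 25 had a negative difference, and the median was -0.66 against -0.04 over all probe sets. Unstimulated KO cells were already above WT cells in 23 of the 26 (median 0.46, 0 called). At 400 min KO cells were below WT cells in 19 (median -0.27, 0 called). Markers of other cells went both ways in KO cells at 400 min against unstimulated. Negative differences were found in 8 of 8 tested fibroblast markers (median -0.48) and 6 of 7 tested T and NK cell markers (median -0.41). Positive differences were found in 7 of 8 neutrophil markers (median 0.36), 5 of 7 erythroid and megakaryocyte markers (median 0.65) and 6 of 9 B cell markers (median 0.09). Of these lists 0 genes were called. Summed intensities of fibroblast markers were 1839 to 2235 at 400 min against 2185 to 2447 unstimulated. Those of T and NK cell markers were 889 to 1134 against 1032 to 1726. The part of other cells in the cell cycle values was not tested. In WT cells at 400 min the median of the cell cycle genes was -0.02 and in KO cells at 100 min -0.07. Without KO 400 min replicate 3 the median in KO cells at 400 min was -0.80 and 1 gene was called lower, E2f1, which drives entry into S phase (-2.78, limma adjusted p = 0.0141). With only replicates 1 and 2 the median was -0.50 and 3 were called lower, Rrm2, Mcm7 and E2f1.

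Regulators reported for the Gadd45 genes were called in both directions. Of 15 tested, 2 were called higher and 1 lower in KO cells at 400 min, against 1.2% and 0.628% of all probe sets. Stat3, which transmits the IL-6 signal, rose by 1.37 (SE 0.25, limma adjusted p = 0.0127) and Myc, a growth factor-induced transcription factor, by 2.31 (SE 0.46, adjusted p = 0.02). Cebpa, a factor of myeloid differentiation, fell by 1.65 on the log2 scale (SE 0.24, adjusted p = 0.00362). Whichever of the 17 arrays was left out, Cebpa was still called. The Stat3 call was lost without replicate 1 or 2 of KO 400 min or replicate 3 of KO 0 min (adjusted p up to 0.0655). The Myc call was lost without any KO 0 min array or KO 400 min replicate 1 or 2 (adjusted p up to 0.0827).

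Genes known to respond to IL-6 held the most calls of the 7 pathway lists, which were chosen with earlier results of these data known. Of 19 tested, 6 were called higher and 1 lower in KO cells at 400 min, against 1.2% and 0.628% of all probe sets. The median log2 difference was 1.37 against -0.04 over all probe sets. Without KO 400 min replicate 3, 5 were called higher, and with only replicates 1 and 2, 7 were. Il4ra, a receptor chain for IL-4, rose by 4.36 (SE 0.35, limma adjusted p = 6.59e-05), Irf1, an interferon-regulated transcription factor, by 2.67 (adjusted p = 0.00198), Pim1, a survival kinase, by 2.01 (adjusted p = 0.000479) and Zfp36, which destabilises cytokine mRNAs, by 1.94 (adjusted p = 0.0101). These 4 calls were kept with each array left out. The calls of Junb (1.49) and Fos (-2.10), subunits of AP-1, were lost without any one KO 0 min or KO 400 min array (adjusted p up to 0.137 and 0.134), that of Fos also without either WT 0 min array. In KO cells at 100 min 5 of the 19 were called higher, against 0.537% of all probe sets, with a median of 0.87.

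In WT cells Il4ra was the 1 of these genes called. It rose by 2.85 at 100 min (limma adjusted p = 0.0456), a call kept only without replicate 3 of WT 100 min or KO 100 min, WT 400 min replicate 1 or KO 0 min replicate 2 and lost without any other array (adjusted p up to 0.302). It rose by 3.58 at 400 min (SE 0.39, limma adjusted p = 0.00339, lost at 0.0989 without WT 0 min replicate 2). The median of the list in WT cells was 0.38 at 100 min and 0.47 at 400 min, against -0.01 over all probe sets at both times. Between KO and WT cells at 400 min 2 of the 19 were called higher in KO, Socs1, a relative of Socs3, by 2.58 (adjusted p = 0.0336) and Irf1 by 2.15 (adjusted p = 0.0201). Over all probe sets 0.314% were called higher and 0.0507% lower in that comparison. The Socs1 call was lost without any one array of KO 400 min, WT 400 min or KO 0 min (adjusted p up to 0.118), and the Irf1 call without replicate 1 or 2 of KO 400 min or replicate 2 or 3 of WT 400 min (adjusted p up to 0.0969).

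The probe sets whose pattern was most like that of Gadd45g were found by Pearson correlation over the 17 arrays, among 8726 tested probe sets of a single gene. They were Cdkn2d (0.92), Il17ra (0.92), Ccr1 (0.92), Susd6 (0.90), Pim1 (0.90) and Gab1 (0.89), where the median over all candidates was -0.03 and the 99th percentile 0.74. Over the 12 arrays of replicates 1 and 2 these 6 correlations were 0.93 to 0.98. Cdkn2d, an inhibitor of the kinases of the G1 phase, averaged 1294 ± 478 unstimulated, 4472 ± 561 at 100 min and 4436 ± 441 at 400 min in KO cells. In WT cells it averaged 885 ± 73.1, 1677 ± 207 and 1807 ± 382 at these times. Both genotypes were thus lowest unstimulated, and KO cells averaged above WT cells at both later times, as for Gadd45g, a likeness for which Cdkn2d was picked. KO exceeded WT by 1.41 at 100 min and 1.31 at 400 min (limma adjusted p = 0.079 and 0.0513), and neither was called. Unlike Gadd45g, its unstimulated KO arrays (989 to 1846) lay above the unstimulated WT arrays (834 to 937), as for 11.8% of all probe sets. Ccr1, a chemokine receptor, averaged 337 ± 9.40, 1992 ± 840 and 2502 ± 609 in KO cells and 168 ± 0.11, 696 ± 410 and 871 ± 590.3 in WT cells.

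Gadd45a had weaker likenesses: Id2, an inhibitor of basic helix-loop-helix factors, at 0.84, then Farsb (0.84), Azin1 (0.82), Lars (0.82), Eif2s2 (0.82) and Acsl4 (0.82), with a 99th percentile of 0.67. Farsb and Lars are aminoacyl-tRNA synthetase genes and Eif2s2 encodes a subunit of an initiation factor. Like Gadd45a, Id2 varied between replicates of one group, with 1976 to 8098 among the WT arrays at 100 min. For Gadd45b on 102779_at the highest were Sltm (0.82), Cyth2 (0.78) and Chmp6 (0.77), and over 12 arrays that of Sltm was 0.54 and that of Chmp6 0.44. For 161666_f_at they were Foxd1 (0.82), Zfp36l2 (0.81) and Ctsc (0.81). None of these was among the 6 most like Gadd45g. The points share the 6 groups and the normalization, so these correlations describe the 17 arrays.

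**Figure D4:**
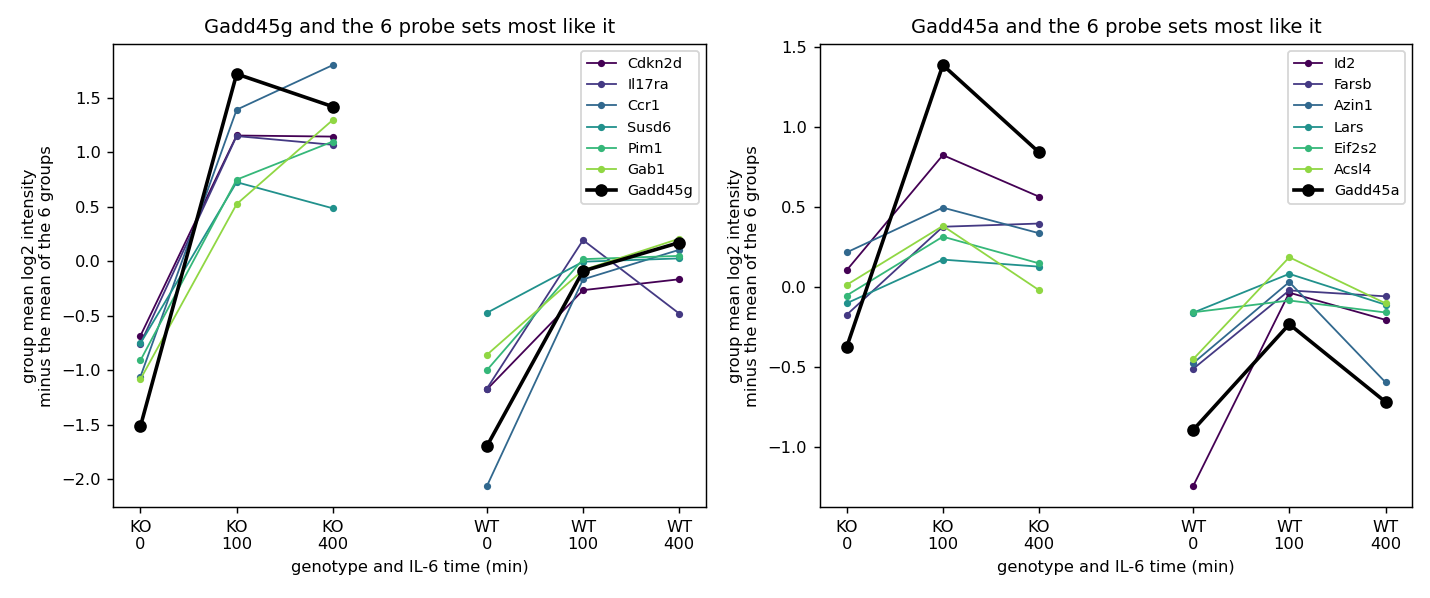
Group means of Gadd45g (left) and Gadd45a (right), in black, with the 6 probe sets most like each, in colour, as log2 intensity minus the mean of the 6 groups, by genotype and time of IL-6 in min. The lines around Gadd45g are highest in stimulated KO cells and lowest in unstimulated cells of both genotypes, while those around Gadd45a are flatter.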

How the data were processed

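Total RNA of macrophages was read on 17 arrays of 12488 probe sets with Affymetrix-style names. The deposited values are linear intensities, 1 per probe set and array, from 0.3 to 91970.4. Their mean without the lowest and highest 2% was 500.3 to 500.4 on each array, so the deposited values had been scaled; the software is not given in the sources used here, and no detection calls were used. Groups came from the sample titles.

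Array medians of the log2 values spanned 0.40, above a limit of 0.3, so the values were quantile normalized, set to a floor of 22.01 (the 10th percentile) and log2 transformed. No member was at the floor. A probe set was tested where 2 or more arrays read it above their 40th percentile, which left 9871, and all 4 members passed. Levels are mean ± SD of normalized intensity.

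limma 3.58.1 in R 4.3.3 fitted 1 mean per group over all 17 arrays, with the two-sided moderated test of eBayes and Benjamini-Hochberg adjustment over the 9871 probe sets in each of 11 comparisons. A call is an adjusted p under 0.05. The script was tested on simulated data. Each listed gene entered with its brightest probe set. The genes named are the members, up to 4 called genes per list and comparison, a fixed set of partners, and the 6 most correlated probe sets of each member. Alternatives changed the normalization, floor, filter, covariates and samples. The members, lists and rules were chosen with earlier results of these data known. Probe sets with several gene symbols (396) or none (1237) were not named.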

Additional observations from a re-analysis of the deposited data

How the results depend on the processing

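The 4 member probe sets were refitted in 11 comparisons under 8 alternatives and without each of the 17 arrays in turn. Apart from arrays left out, 332 of these values kept direction and side of the threshold, 5 moved below the threshold, 2 moved above it and 13 changed sign. Without single arrays these counts were 726, 3, 0 and 19. When only the groups compared were fitted, where fewer samples enter, the call of Gadd45g in KO cells at 400 min (2.94) was lost (limma adjusted p = 0.0838). The counts include KO cells at 100 min against unstimulated, whose values are descriptions, since the members were chosen on them. Moves across the threshold in that comparison are counted but are not results of a test. They were those of Gadd45g (3.23) with only the groups compared and of 161666_f_at (-0.94) with replicate 3 as a batch term. With only replicates 1 and 2, KO exceeded WT in Gadd45g by 2.01 at 100 min (adjusted p = 0.031) and 1.85 at 400 min (adjusted p = 0.0191), and Gadd45b on 161666_f_at was lower by -1.49 at 100 min (adjusted p = 0.031). With that batch term 161666_f_at was called at -1.26 in KO against WT at 100 min (adjusted p = 0.0304). Over these alternatives its highest limma adjusted p was 0.434. For Gadd45g in KO against WT the highest was 0.305 at 100 min and 0.564 at 400 min. The comparisons of KO with WT at 100 min use KO arrays that entered the choice of the members. These changes' cause was not tested.

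Signs that changed were all of differences that had not passed the test. With only replicates 1 and 2, Gadd45a in WT cells was -0.26 at 100 min, -0.11 at 400 min and 0.15 from 100 to 400 min. In that setting KO minus WT unstimulated was -0.19 for Gadd45g, -0.18 for Gadd45a, 0.35 for 102779_at and -0.077 for 161666_f_at, and for 102779_at it was -0.16 at 100 min with a response difference of -0.51. Leaving out single arrays, Gadd45g ranged from 2.92 to 3.61 in KO cells at 100 min, 2.62 to 3.35 at 400 min and -0.53 to 0.12 between these times, and from -0.19 to 0.50 in KO against WT unstimulated. Gadd45a ranged from -0.26 to 1.52 in WT cells at 100 min, -0.13 to 0.77 at 400 min, -1.34 to 0.44 between these times, and -0.18 to 1.26 in KO against WT unstimulated. For 102779_at the ranges were -0.75 to 0.33 in KO cells at 400 min, -0.20 to 0.61 in WT cells between 100 and 400 min, -0.45 to 0.35 in KO against WT unstimulated, -0.25 to 0.55 at 100 min and -0.10 to 0.71 for the response difference at 100 min. For 161666_f_at they were -0.077 to 0.18 in KO against WT unstimulated and -1.40 to -1.16 at 100 min.

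Replicate numbers are shared by the groups, but the labels state no pairing, so the main fit did not use the numbers to pair the samples. Same-numbered pairs did tend to deviate together more than other pairs, most clearly in replicate 3. Over 40 such pairs, deviations from the group mean correlated between -0.02 and 0.24, with a median of 0.06 against -0.04 for 80 pairs of different numbers. The median was 0.04 for replicate 1, 0.04 for replicate 2 and 0.14 for replicate 3, whose lowest pair was 0.10, and 11 of the 17 arrays correlated best with their own number. With the replicate number as a block, Gadd45a in WT cells at 400 min was -0.17 and 102779_at in KO against WT unstimulated 0.22, the same as with the batch term (-0.17 and 0.22). The block raised all calls to 86 at 100 min and 305 at 400 min in KO cells, against 57 and 180, and in KO against WT to 10 and 57, against 4 and 36. With only replicates 1 and 2 these 4 counts were 117, 276, 30 and 122, with the batch term 94, 332, 16 and 85, and with only the groups compared 0, 52, 0 and 2. In KO against WT at 100 min 11 were called with an offset of 50 in place of the floor and 2 without quantile normalization. Without single arrays they ranged over 24 to 79, 73 to 229, 1 to 12 and 11 to 55. Without one unstimulated WT array the lone sample left is assumed to vary like the other groups. The 2 arrays of that group and the absence of detection calls limit what dim probe sets can show.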
